A study of Mus musculus with 311 samples.

Results

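The drug-metabolizing genes Cyp2b10, Cyp3a11, Cyp2c37, Cyp2c38 and Gsta2 were followed across the livers of an F2 intercross, 5 of the 11387 genes with a usable probe. They were chosen by name, all probes carrying these names were taken, and each gene had 1 probe, so that agreement between probes of 1 gene could not be measured. The 5 probes were among 23388 on each array, and all passed the filter that asked for a value on at least 95% of the 311 arrays. The animals were F2 offspring of C57BL/6J and C3H/HeJ mice in which both parental strains carried the ApoE null background, so all animals lacked apolipoprotein E. Both sexes were used, and a high-fat Western diet was given from 8 to 24 weeks of age. Every array set total liver RNA of 1 animal (Cy3) beside a common pool made in equal shares from the samples (Cy5), and each animal was measured once. Values were read as log10 ratios of animal over pool, with base and sign derived from the values. On that reading 0 is the pool's level and 1 would be 10-fold above it. A ratio to a pool carries no absolute level, and the liver label could not be checked against marker levels.

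The labels gave neither sex nor genotype of single animals. The animals were therefore divided at -0.5 on the log10 ratio of Eif2s3y, a Y-linked subunit of a translation initiation factor. The Eif2s3y-high range held 155 animals and the Eif2s3y-low range 156. Eif2s3y spanned -0.219 to 0.527 in the first and -1.76 to -0.875 in the second, so no animal lay at the dividing value. Kdm5d, a second Y-linked gene, was above -0.5 in all 155 animals of the Eif2s3y-high range and in 1 of the Eif2s3y-low range. The ranges come from a measured gene, not from labels, so levels in them are described without a test. Correlations were computed within each range, which keeps a difference in level between the ranges out of r.

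Cytochromes P450 of the families 2B, 2C and 3A are haem enzymes of the hepatocyte that oxidize drugs, steroids and fatty acids. Cyp2b10 and Cyp3a11 are the standard mouse read-outs of the nuclear receptors CAR (Nr1i3) and PXR (Nr1i2), which bind DNA with the partner Rxra. Cyp2c37 and Cyp2c38 belong to a cluster of Cyp2c genes on chromosome 19 whose products also convert arachidonic acid. Gsta2 codes for an alpha-class glutathione transferase, which couples glutathione to reactive products, and is a textbook target of NRF2 (Nfe2l2), the factor that answers oxidative and electrophilic stress. Several of these enzymes are known to differ between male and female mouse liver.

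The sequences before the starts of these genes are shown because the Cyp2c results include near copies. They are the 250 bases before the annotated start, from RefSeq on the build GRCm38.p6, which held all 5 genes. Capitals mark matches to the motifs named after the sequences. The positions are chr19:39992174-39992423, plus strand for Cyp2c37, chr19:40089429-40089678, plus strand for its near copy Cyp2c50, chr19:39463076-39463325, minus strand for Cyp2c38, chr19:39286835-39287084, plus strand for its relative Cyp2c29, chr5:145879855-145880104, minus strand for Cyp3a11, chr9:78347146-78347395, minus strand for Gsta2 and chr7:25897408-25897657, plus strand for Cyp2b10.
Cyp2c37: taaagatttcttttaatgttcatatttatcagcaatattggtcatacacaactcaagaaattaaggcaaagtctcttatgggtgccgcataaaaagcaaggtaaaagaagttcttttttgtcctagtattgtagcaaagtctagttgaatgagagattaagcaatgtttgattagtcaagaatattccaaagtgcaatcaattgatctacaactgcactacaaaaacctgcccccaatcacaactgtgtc
Cyp2c50: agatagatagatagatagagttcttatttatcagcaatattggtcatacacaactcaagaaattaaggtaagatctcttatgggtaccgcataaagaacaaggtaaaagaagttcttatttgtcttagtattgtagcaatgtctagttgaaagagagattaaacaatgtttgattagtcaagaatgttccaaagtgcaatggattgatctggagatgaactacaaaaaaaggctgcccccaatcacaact
Cyp2c38: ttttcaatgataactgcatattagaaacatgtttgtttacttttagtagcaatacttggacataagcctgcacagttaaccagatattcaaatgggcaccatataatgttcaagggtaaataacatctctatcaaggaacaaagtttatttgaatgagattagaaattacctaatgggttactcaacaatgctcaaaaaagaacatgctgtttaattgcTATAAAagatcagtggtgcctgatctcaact
Cyp2c29: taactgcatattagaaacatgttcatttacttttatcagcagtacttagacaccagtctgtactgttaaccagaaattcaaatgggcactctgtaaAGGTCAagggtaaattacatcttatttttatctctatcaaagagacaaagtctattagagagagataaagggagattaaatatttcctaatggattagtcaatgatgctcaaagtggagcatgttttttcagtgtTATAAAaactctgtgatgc
Cyp3a11: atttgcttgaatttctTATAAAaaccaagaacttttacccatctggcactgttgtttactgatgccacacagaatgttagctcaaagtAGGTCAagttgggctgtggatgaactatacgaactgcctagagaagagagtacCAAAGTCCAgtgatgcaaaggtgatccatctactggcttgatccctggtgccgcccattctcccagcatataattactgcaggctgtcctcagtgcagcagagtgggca
Gsta2: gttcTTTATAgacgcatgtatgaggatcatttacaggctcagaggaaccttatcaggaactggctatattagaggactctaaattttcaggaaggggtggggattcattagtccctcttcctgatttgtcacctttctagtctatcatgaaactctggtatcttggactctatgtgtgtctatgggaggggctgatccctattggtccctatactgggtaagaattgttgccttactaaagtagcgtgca
Cyp2b10: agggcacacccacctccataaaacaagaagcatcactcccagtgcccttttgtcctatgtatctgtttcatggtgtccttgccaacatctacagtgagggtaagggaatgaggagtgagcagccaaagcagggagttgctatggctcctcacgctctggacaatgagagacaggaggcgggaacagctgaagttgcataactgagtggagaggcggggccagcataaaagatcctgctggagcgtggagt

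Over windows of 300 bases (250 before to 50 after the start), Cyp2c37 and Cyp2c50 were identical in 86.6% of aligned columns. Cyp2c38 matched Cyp2c39 in 78.1% and Cyp2c29 in 70.8%. Cyp2c37 against Cyp2c38 gave 56.9%, between those values and the 45.4% of the unrelated pair Cyp3a11 and Gsta2. Cyp2c40, another gene of the cluster, lay below the unrelated pair, at 43.7% with Cyp2c37 and 44.0% with Cyp2c38. Motifs were searched on both strands in the same windows. TATAAA, the TATA box, lay 31 bases before the start of Cyp2c38 and 19 before that of Cyp2c29, where 13.6% of all 32851 promoters held it anywhere in the window. In Cyp3a11 it lay 234 bases before the start, and in Gsta2 246 bases before, on the minus strand. AGGTCA, the half-site of nuclear receptors, lay 162 bases before the start of Cyp3a11 and 154 before that of Cyp2c29, against 16.3% of promoters. CAAAGTCCA, an HNF4 element, lay 109 bases before the start of Cyp3a11 and was held by 0.475% of promoters. No window of the 7 genes held TTATGTAA (PAR bZIP factors, 0.938% of promoters), TTGCGCAA (C/EBP factors, 0.183%) or TGACNNNGC (the core of the antioxidant response element, 12.4%). No motifs overlapped each other in these windows. The sequences of the array's probes were not used here, and signal shared between near copies cannot be told apart from shared expression.

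Gsta2 was the most variable of these transcripts and Cyp2b10 the least. The SD of Gsta2 over all 311 animals was 4.2 times that of the median gene, and 1.71% of genes had a larger SD. Cyp2c37 followed at 3.18 times, Cyp3a11 at 2.82 and Cyp2c38 at 2.05. Cyp2b10 stood at 0.812 times, below the median gene, with 68.8% of genes more variable. From the 5th to the 95th percentile Cyp2b10 spanned 1.49-fold and Gsta2 8.02-fold.

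Cyp2b10, the barbiturate-inducible P450 of mouse liver, ranged from -0.120 to 0.288 with a median of 0.0273 in 154 Eif2s3y-high animals and from -0.113 to 0.199 with a median of -0.00152 in the 156 Eif2s3y-low animals. The spans of values overlapped almost fully, and the medians differed 1.07-fold, with 36.6% of genes showing a larger gap. On this small scale 128 of 156 Eif2s3y-low animals lay below the Eif2s3y-high median. Of 154 Eif2s3y-high animals, 105 lay above the Eif2s3y-low median. Cyp3a11, the main PXR-induced P450, ranged from -0.902 to 0.281 with a median of -0.140 in the Eif2s3y-high range and from -0.551 to 0.463 with a median of 0.0128 in the other. The median was 1.42-fold higher in the Eif2s3y-low range, where 141 of 156 animals lay above the Eif2s3y-high median. Cyp2c37 ranged from -0.756 to 0.219 with a median of -0.160 and from -0.556 to 0.349 with a median of 0.0324 respectively. It had the largest gap of the P450s, 1.56-fold between medians, again higher in the Eif2s3y-low range. Cyp2c38 ranged from -0.470 to 0.435 with a median of -0.0640 and from -0.269 to 0.253 with a median of 0.0444, a gap of 1.28-fold in the same direction. Gsta2 went the other way, from -0.909 to 0.408 with a median of 0.0720 in the Eif2s3y-high range against from -1.14 to 0.387 with a median of -0.114, which is 1.53-fold higher. Here 120 of 155 Eif2s3y-high animals lay above the Eif2s3y-low median. The median gene had a gap of 0.0193 in log10 between the medians, and 1.64% of genes had a larger one than Cyp2c37.

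**Figure D1:**
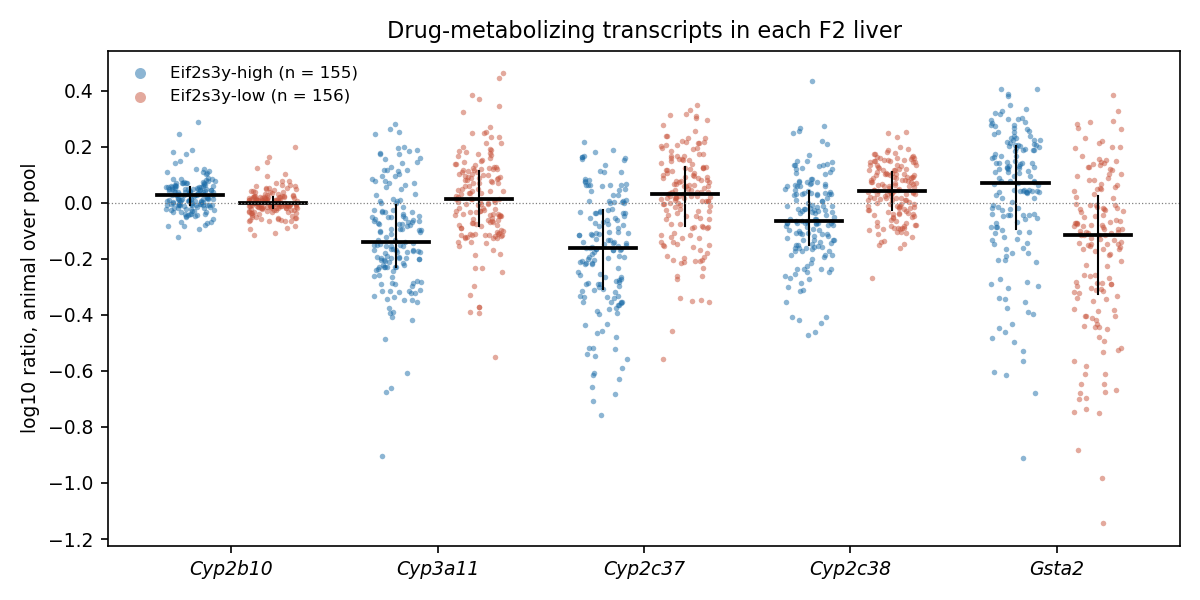
Log10 ratio of animal over pool (y axis) of Cyp2b10, Cyp3a11, Cyp2c37, Cyp2c38 and Gsta2 (x axis), 1 point per animal, in 155 Eif2s3y-high animals (154 for Cyp2b10) and 156 Eif2s3y-low animals. Thick bars are medians and thin bars span the quartiles. The points of both ranges overlap for every gene, Cyp2b10 is the narrowest and Gsta2 has the longest tail, down to -1.14.

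The spread also differed between the ranges. The SD of Cyp2c38 was 1.61 times as large in the Eif2s3y-high as in the Eif2s3y-low range, and 3.96% of genes had a larger ratio. For Cyp2b10 the ratio was 1.34, for Cyp2c37 1.28 and for Cyp3a11 1.2. Gsta2 alone among the 5 varied less in the Eif2s3y-high range, with a ratio of 0.867. A locus of large effect in an F2 would give portions of 1:2:1 or 3:1, so each distribution was set against mixtures of normals by the Bayesian information criterion (BIC). No mixture beat the best single distribution by the required 10 units in any gene or range. Gsta2 in the Eif2s3y-high range was skewed to low values (skew -1.07), and a skew normal beat the normal by 30.4 units. Its 1:3 mixture beat the normal by 20.3 units but stood at -10.2 against the skew normal. Cyp2b10 had heavy tails, best described by a Student t in both ranges, by 11.7 and 24.2 units over the normal. Cyp2c38 was best described by a single normal in both.

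The extreme animals differed from gene to gene. The lowest Gsta2 value of the Eif2s3y-high range, -0.909 in F2 number 197, came with a low Cyp3a11 of -0.661 and with Cyp2b10 at 0.0735. The lowest Cyp3a11 of that range, -0.902 in F2 number 153, came with Gsta2 at -0.679 and Cyp2c37 at 0.00270. In the Eif2s3y-low range F2 number 295 held the highest value of both Cyp3a11 (0.463) and Gsta2 (0.387). The lowest Cyp2c37 of the Eif2s3y-high range, -0.756 in F2 number 234, had Gsta2 at 0.319, above the pool.

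Whether these enzymes varied together from liver to liver was asked next, for all 10 pairs in each range, 20 correlations in all. A correlation was called where the limma fits over 22862 probes, with each gene of the pair in turn as the predictor, both gave an adjusted p (Benjamini-Hochberg) under 0.05. The larger of both is given. Permutation p-values are two-sided, and 1e-05 is the smallest that 100000 resamples can give. In all, 6 of 10 pairs were called in the Eif2s3y-high range and 3 of 10 in the Eif2s3y-low range. Against these counts stands the share of all probes called with each gene. In the Eif2s3y-high range it was 29.4% for Cyp2b10, 23% for Cyp3a11, 42.6% for Cyp2c37, 21.8% for Cyp2c38 and 33.1% for Gsta2. In the Eif2s3y-low range the shares were 33.3%, 32.3%, 29.3%, 0.805% and 24.7% in the same order.

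Cyp2c37 and Cyp2c38, members of the chromosome 19 cluster, varied together in the Eif2s3y-high range and less in the other. Their r was 0.653 (95% interval 0.552 to 0.735, n = 155) in the Eif2s3y-high range (limma adjusted p = 1.8e-12, permutation p = 1e-05). Spearman's rho there was 0.615, and r was 0.629 without the 2 animals farthest from the median. In the Eif2s3y-low range r was 0.161 (95% interval 0.00367 to 0.310, n = 156), which was not called (limma adjusted p = 0.352, permutation p = 0.0441, rho = 0.146). The difference of both r was 0.492 (95% interval 0.271 to 0.714), the single difference called among the 10 pairs (limma adjusted p = 0.0251). Of all probes, 4.97% were called for a difference with Cyp2c37 and 0.101% with Cyp2c38. Among animals with F2 numbers up to the median of 186 the difference was 0.328, and above it 0.644, and neither of these smaller sets reached the threshold. The SD of both genes was smaller in the Eif2s3y-low range, as given above, and its part in the difference of r was not tested.

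**Figure D2:**
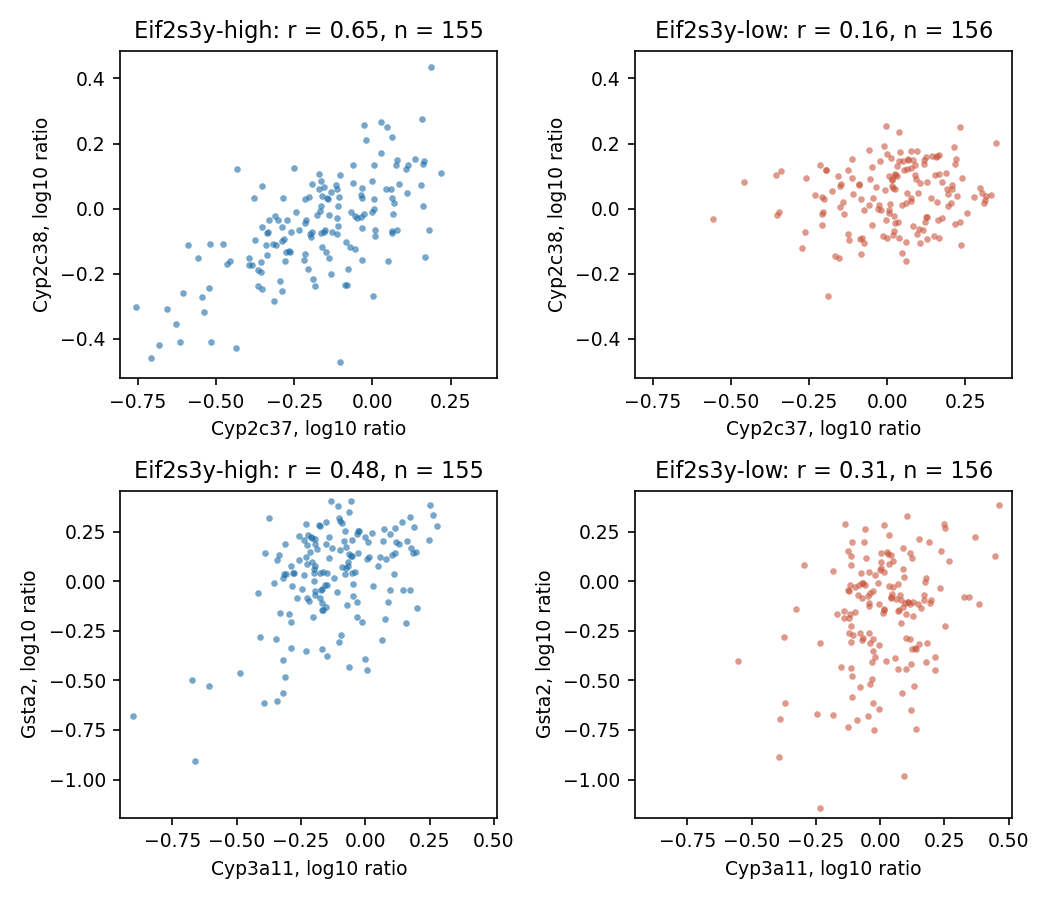
Log10 ratios of animal over pool, 1 point per animal, for Cyp2c37 against Cyp2c38 (upper row) and Cyp3a11 against Gsta2 (lower row), with the 155 Eif2s3y-high animals on the left and the 156 Eif2s3y-low animals on the right. The upper left cloud is drawn out along a line (r = 0.653) and the upper right cloud is rounder (r = 0.161). The lower clouds slope upwards in both ranges.

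Cyp3a11 and Gsta2 varied together in both ranges. Pearson's r was 0.484 (95% interval 0.353 to 0.596, n = 155) in the Eif2s3y-high animals (limma adjusted p = 4.8e-07, permutation p = 1e-05, rho = 0.354). In the Eif2s3y-low animals r was 0.311 (95% interval 0.161 to 0.446, n = 156) (limma adjusted p = 0.000963, permutation p = 9e-05, rho = 0.204). Without the 2 farthest animals the values were 0.418 and 0.279. The Eif2s3y-low value fell to 0.122 and was not called after 5 principal components were removed. Cyp2c37 and Gsta2 were opposed, with r = -0.293 (95% interval -0.431 to -0.142, n = 155) and -0.346 (95% interval -0.478 to -0.200, n = 156) (limma adjusted p = 0.00135 and 0.000184, permutation p = 0.000200 and 2e-05). Spearman's rho was -0.336 and -0.337, and r without the 2 farthest animals was -0.285 and -0.314. This direction turned to 0.302 and 0.0227 after 5 principal components, the variation shared by many probes, were removed.

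The other pairs were weaker. Cyp3a11 and Cyp2c38 had r = 0.278 (95% interval 0.126 to 0.417, n = 155) in the Eif2s3y-high range (limma adjusted p = 0.00552, permutation p = 0.000690, rho = 0.214) and 0.185 in the other, where the call failed (permutation p = 0.0208). Cyp2b10 had r = 0.234 with Cyp2c37 and 0.241 with Cyp2c38 in 154 Eif2s3y-high animals (limma adjusted p = 0.0161 and 0.0183, permutation p = 0.00335 and 0.00282). In the Eif2s3y-low range the same pairs had 0.00230 and 0.169 and were not called. Without the 2 farthest animals the Eif2s3y-high value of Cyp2b10 and Cyp2c38 was 0.153. Both Eif2s3y-high calls ended with 5 components removed, where r was -0.0358 with Cyp2c37, the opposite sign, and 0.0898 with Cyp2c38. The call with Cyp2c37 was lost in 2 of 10 alternatives and that with Cyp2c38 in 3. The CAR and PXR read-outs Cyp2b10 and Cyp3a11 were positively correlated in neither range. Their r was -0.0214 (95% interval -0.179 to 0.137, n = 154) in the Eif2s3y-high range, and -0.193 (95% interval -0.340 to -0.0372, n = 156) in the Eif2s3y-low range, which was called as a negative correlation (limma adjusted p = 0.0466, permutation p = 0.0163). That call was lost in 6 of 10 alternatives, over which r lay between -0.204 and -0.0962. Cyp2b10 with Gsta2, Cyp3a11 with Cyp2c37 and Cyp2c38 with Gsta2 were called in neither range, with r from -0.108 to 0.0567.

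**Figure D3:**
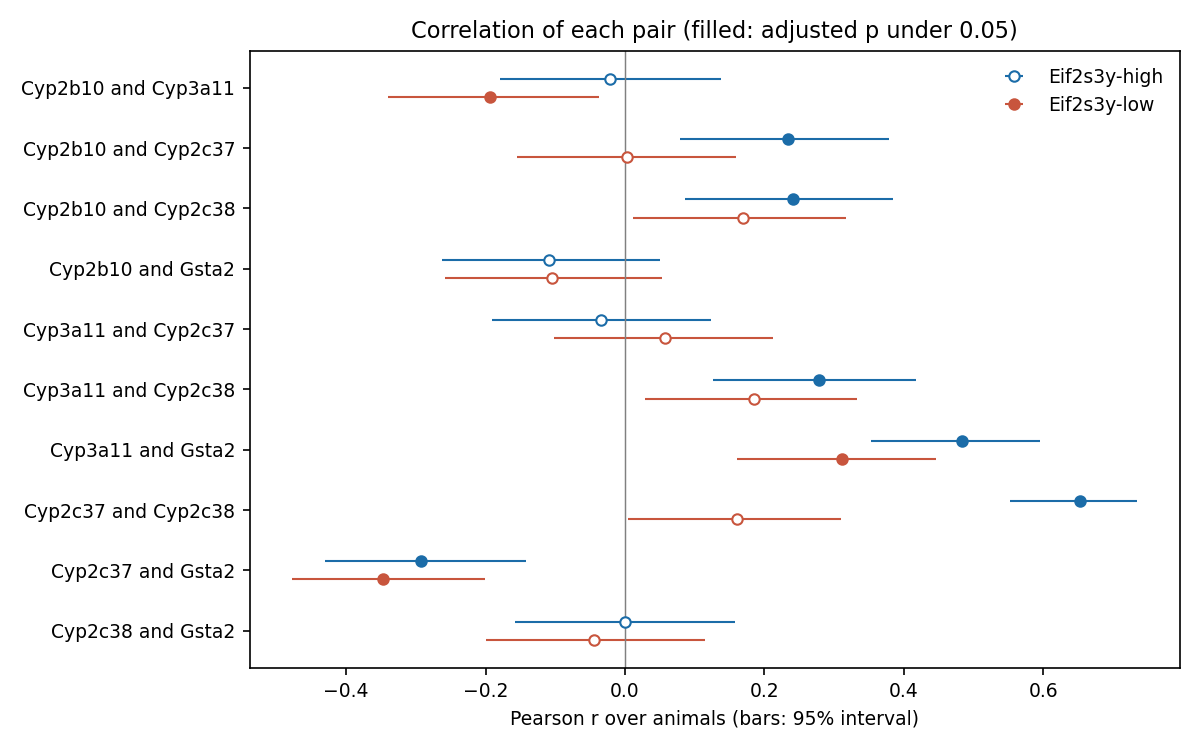
Pearson r over animals (x axis, bars are 95% intervals) for each of the 10 pairs (y axis) in the Eif2s3y-high and Eif2s3y-low animals. Filled points passed an adjusted p of 0.05 in limma. Cyp2c37 with Cyp2c38 is the pair whose intervals lie farthest apart, and Cyp3a11 with Gsta2 is positive and Cyp2c37 with Gsta2 negative in both ranges.

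Cyp2b10 was then set against all other probes. Among Eif2s3y-high animals 3814 probes were called with a positive r (16.7%) and 2901 with a negative r (12.7%), together 29.4% of the 22862 tested. The Eif2s3y-low range gave 4168 (18.2%) and 3443 (15.1%), together 33.3%. Over genes in place of probes the shares were 17.6% positive and 13.9% negative (31.5% in all), then 18.5% and 14.6% (33.2%). Each r in this and the following paragraphs has a standard error of about 0.08, values are given for the Eif2s3y-high and then the Eif2s3y-low range, and a gene is called in a range at a limma adjusted p under 0.05. Lists of related genes are read against these shares of all genes, and several lists share genes. Of the related Cyp2b genes, Cyp2b9, a Cyp2b form of female mouse liver, had r = 0.620 and 0.350 and was called in both ranges. The Cyp2b9 probe used had an SD of 0.194, and another Cyp2b9 probe, of SD 0.0384, was not used for the gene. Cyp2b19 had 0.295 and -0.111 and was called in the Eif2s3y-high range, while Cyp2b13 (0.000117 and 0.0319) and Cyp2b23 (0.186 and 0.164) were called in neither. The Cyp2b13 probe used had an SD of 0.0736, and a more variable one, of SD 0.124, was not used. For Cyp2b19 the SDs were 0.0813 for the probe used and 0.0411 for the other. The receptor partner Rxra was the leading gene of the receptors list with Cyp2b10, with r = 0.583 and 0.511 (limma adjusted p = 3.1e-10 and 2.1e-08). Nr1i3, the receptor CAR itself, had 0.266 and 0.233, and Tef, a PAR bZIP factor of the circadian clock's output, had 0.420 and 0.303. All 3 were called in both ranges. Of the 31 receptors and partners measured, 8 were called positive and 2 negative in the first range, and 8 and 1 in the second.

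Among the 27 other drug-metabolizing P450s measured, 14 were called positive with Cyp2b10 and 0 negative in the Eif2s3y-high range (median r 0.198, all genes -0.00371). In the Eif2s3y-low range 3 were positive and 1 negative. Cyp2a5, the coumarin hydroxylase, had r = 0.458 and 0.294 and Cyp1a2, a caffeine-oxidizing P450, 0.297 and 0.240, and both were called in both ranges. Of 29 NRF2 target genes, 0 were positive and 8 negative in the first range, then 0 and 7 in the second. Gclc, a subunit of the rate-limiting enzyme of glutathione synthesis, had r = -0.345 and -0.336, and Gstm1, a mu-class glutathione transferase, -0.245 and -0.308. The CAR and PXR targets gave 7 positive and 4 negative, then 3 and 6 of 30 (median r -0.0467 and -0.0455). More markers of other cells were called negative than positive with Cyp2b10 in the Eif2s3y-high range. The 19 stellate and matrix genes gave 1 positive and 10 negative, then 1 and 6 (median r -0.215 and -0.0922), the 22 macrophage genes 0 positive and 9 negative, then 1 and 1 and the 8 hepatocyte genes 5 positive and 0 negative, then 2 and 0. The 12 bile duct genes gave 0 positive and 4 negative, then 0 and 1 (median r -0.129 and -0.0555). The lymphocyte and endothelial lists were less one-sided, with the 17 lymphocyte genes at 3 positive and 3 negative, then 4 and 2. The 15 endothelial genes gave 2 and 3, then 1 and 1. The part of these cells in the variation of Cyp2b10 was not tested.

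The genes most like Cyp2b10, ranked by the smaller r of both ranges, were not P450s. Samd4, an RNA-binding translational repressor, had r = 0.567 and 0.682 and A3galt2, a galactosyltransferase, 0.575 and 0.657. Pip5k1c, a lipid kinase, had 0.579 and 0.577, Zfp36l2, an mRNA decay factor, 0.584 and 0.575, Fbxo2, a ubiquitin ligase subunit, 0.595 and 0.567 and the netrin Ntn3 0.565 and 0.624. Most opposed were Icam1, an adhesion molecule, at -0.426 and -0.420, the Janus kinase Tyk2 at -0.417 and -0.451 and Abi2, an actin regulator, at -0.411 and -0.440. Cyp2b10 varied less than the median gene, so these correlates rest on small differences between arrays. Its rank correlation with the median of all probes on the array was 0.252 in 154 and 0.227 in 156 animals. With each array centred on that median, 6442 and 7414 probes were called. Removing 5 principal components left 1430 and 1349.

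Cyp3a11 varied closely with Cyp3a41a of its own family and with 2 probes named for other genes. Among Eif2s3y-high animals 2569 probes were called with a positive r (11.2%) and 2693 with a negative r (11.8%), together 23% of the 22862 tested. The Eif2s3y-low range gave 3696 (16.2%) and 3685 (16.1%), together 32.3%. Over genes in place of probes the shares were 11.3% positive and 12.8% negative (24.1% in all), then 15.1% and 16.9% (32%). The totals for Cyp3a11, 5262 and 7381 probes, became 185 and 286 with 5 components removed, 217 and 3472 among F2 numbers up to the median and 3333 and 4023 above it. Cyp3a41a, a Cyp3a form of female mouse liver, had r = 0.972 and 0.778 (limma adjusted p = 5.4e-30 and 7.5e-19). These values rest on 1 Cyp3a41a probe, of SD 0.214. The other Cyp3a41a probes, of SD 0.326 and 0.314, lacked values on too many arrays to pass the filter. Cyp3a16, a fetal and female form, had r = 0.707 and 0.261, and the difference of its r missed the threshold (limma adjusted p = 0.0600). Cyp3a25 had 0.242 and 0.437, called in both ranges, and Cyp3a13 had 0.0342 and 0.0925, called in neither. Rps6kb2, a ribosomal S6 kinase annotated on chromosome 19, and a probe named PNPLA1, after a patatin-like phospholipase, lay near Cyp3a41a, below it in the Eif2s3y-high and above it in the Eif2s3y-low range, at 0.953 and 0.840 and 0.927 and 0.837. Cyp2c55, a PXR-inducible Cyp2c gene, had r = 0.619 and 0.459 and Cyp2a12, a steroid hydroxylase, 0.475 and 0.610. Of the other genes outside the P450s the catalytic subunit Ppp2ca of a protein phosphatase (0.540 and 0.549), the ubiquitin-conjugating enzyme Ube2n (0.534 and 0.544) and the adaptor subunit Ap3s1 (0.519 and 0.565) came next. The palmitoyltransferase gene Zdhhc12 (-0.517 and -0.531), Lamtor4 (-0.498 and -0.510), a subunit of a lysosomal scaffold, and Pacs2 (-0.528 and -0.479), a sorting protein, were most opposed. Cyp3a41a shares much of the Cyp3a11 sequence as a paralog, and shared probe signal was not tested.

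The conjugation genes followed Cyp3a11 in part. Of 29 NRF2 target genes, 16 were called positive and 1 negative in the Eif2s3y-high range and 11 and 1 in the Eif2s3y-low range (median r 0.235 and 0.110, all genes -0.0155 and -0.0140). Ephx1, microsomal epoxide hydrolase, had r = 0.488 and 0.407 and Ugdh, which makes UDP-glucuronic acid, 0.477 and 0.424. Of 30 CAR and PXR targets, 12 were called positive and 3 negative in the Eif2s3y-high range and 11 and 0 in the Eif2s3y-low range (median r 0.133 and 0.108), the Cyp3a genes included. The 17 genes of glucuronidation and sulfation gave 5 positive and 1 negative, then 10 and 0, led by Ugt2b5, a glucuronosyltransferase, at 0.408 and 0.531 and by Ugp2, which makes UDP-glucose, at 0.339 and 0.513. The 31 receptors and partners gave 3 positive and 6 negative, then 5 and 8 (median r -0.113 and -0.0313), and among them the glucocorticoid receptor Nr3c1 had 0.314 and 0.487 and the forkhead factor Foxa3 -0.301 and -0.483, both called in both ranges. Of 25 genes of fatty acid oxidation, 5 were called positive and 2 negative in the Eif2s3y-high range and 14 and 1 in the Eif2s3y-low range, with Ehhadh, a peroxisomal enzyme, at 0.344 and 0.456. The 17 acute phase genes gave 0 positive and 6 negative, then 0 and 6, with the protease inhibitor Serpina3n at -0.277 and -0.377. The 19 markers of stellate cells and matrix gave 9 positive and 0 negative, then 11 and 0, with Lum, lumican, at 0.340 and 0.373 and Col1a1, type I collagen, at 0.255 and 0.448. The part of these cells in the variation of Cyp3a11 was not tested. In whole liver, fewer cells of a type and less RNA per cell cannot be told apart.

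Cyp2c37 varied closely with its near copy Cyp2c50. Among Eif2s3y-high animals 5613 probes were called with a positive r (24.6%) and 4120 with a negative r (18%), together 42.6% of the 22862 tested. The Eif2s3y-low range gave 3746 (16.4%) and 2956 (12.9%), together 29.3%. Over genes in place of probes the shares were 24.5% positive and 21% negative (45.5% in all), then 16.1% and 15.2% (31.3%). The totals for Cyp2c37, 9733 and 6702 probes, became 524 and 3153 with 5 components removed, 6556 and 3034 among F2 numbers up to the median and 7179 and 3186 above it. A total of 1137 probes were called for a difference of r between the ranges, but 53 with the components removed, 37 up to the median F2 number and 271 above it. Within the cluster the near copy Cyp2c50 had r = 0.955 and 0.842 (limma adjusted p = 2.3e-29 and 1.1e-22), and Cyp2c54 0.932 and 0.726. Cyp2c40, a Cyp2c form of female liver, had 0.466 and 0.654, Cyp2c70, which hydroxylates bile acids to muricholic acids, 0.563 and 0.384 and Cyp2c23, an epoxygenase, 0.351 and 0.427. All 5 were called in both ranges. Cyp2c40 was represented by 1 of several probes, whose SDs ran from 0.0891 to 0.318, the last being that of the probe used. Cyp2c29 had 0.751 and 0.369, and this difference was called (limma adjusted p = 0.0217). Cyp2c55 was opposed in the Eif2s3y-low range alone by its call, at -0.167 and -0.453, but its difference was not called (limma adjusted p = 0.107). Cyp2c39 was called in neither (-0.152 and -0.176).

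Beyond the cluster, Gpld1, a plasma phospholipase that cleaves lipid anchors, was the gene most like Cyp2c37 by the smaller r of both ranges, with r = 0.786 and 0.752 (limma adjusted p = 8.6e-20 and 8.2e-18). The transcription factors Olig2 and Msx2 had 0.729 and 0.674 and 0.668 and 0.627, and the secreted protein fetuin B, Fetub, 0.656 and 0.625. Most opposed were Bmp8b, a growth factor, at -0.676 and -0.736, Mtmr11, a myotubularin relative, at -0.709 and -0.700 and Npdc1 at -0.697 and -0.678. Gsto1, an omega-class glutathione transferase, had 0.617 and 0.668 and Cyp2d10, a P450, 0.688 and 0.50. The receptors Hnf4a and Nr1i3 had 0.556 and 0.408 and 0.445 and 0.413, called in both ranges. Sult2a1, a hydroxysteroid sulfotransferase, had 0.827 and 0.271, with a called difference (limma adjusted p = 0.000341).

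Hepatocyte and lipid genes split by direction with Cyp2c37. Of 14 periportal hepatocyte genes, 10 were called positive and 0 negative in the Eif2s3y-high range and 10 and 0 in the Eif2s3y-low range (median r 0.415 and 0.256, all genes 0.0175 and 0.0189). They were led by the urea cycle genes Asl (0.644 and 0.503) and Otc (0.633 and 0.433). The direction was shared by the opposite zone, as the 16 pericentral genes gave 8 positive and 1 negative, then 9 and 0 (median r 0.194 and 0.244). The 8 genes of the hepatocyte list gave 6 positive and 0 negative, then 3 and 0. The 27 genes of bile acid synthesis and transport gave 18 positive and 4 negative, then 13 and 0 (median r 0.370 and 0.170), with Akr1d1, a steroid reductase, at 0.718 and 0.402 and Slc27a5, a bile acid ligase, at 0.664 and 0.487. Of 19 genes of lipogenesis, 1 was called positive and 14 negative in the Eif2s3y-high range and 1 and 16 in the Eif2s3y-low range (median r -0.307 and -0.356). Cidea, a lipid droplet protein, had -0.525 and -0.520 and Fasn, fatty acid synthase, -0.509 and -0.460, while Mlxipl, the carbohydrate response factor ChREBP, went the other way at 0.467 and 0.493. The 16 genes of cholesterol synthesis gave 2 positive and 8 negative, then 0 and 13, with squalene epoxidase, Sqle, at -0.357 and -0.508. The 29 NRF2 targets gave 2 positive and 15 negative, then 1 and 14, with the quinone reductase Nqo1 at -0.530 and -0.496. Markers of several other cell types moved against Cyp2c37, the 17 lymphocyte genes less so. Those gave 2 positive and 6 negative, then 1 and 2, with 15.2% of all genes negative in the Eif2s3y-low range. The 19 stellate and matrix genes gave 1 positive and 12 negative, then 0 and 12, the 22 macrophage genes 2 positive and 13 negative, then 1 and 10 and the 15 endothelial genes 3 positive and 8 negative, then 0 and 8. Pdgfrb, a receptor of stellate cells, had -0.686 and -0.505 and Itgax, a myeloid integrin, -0.543 and -0.416. The part of these cells in the variation of Cyp2c37 was not tested.

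The sex-biased lists differed in their counts with Cyp2c37. Of 24 male-biased liver genes, 16 were called positive and 0 negative in the Eif2s3y-high range, and 7 and 6 in the Eif2s3y-low range. Cyp7b1, an oxysterol hydroxylase, had 0.604 and 0.405 and Ghr, the growth hormone receptor, 0.650 and 0.343. Of 27 female-biased genes, 4 were positive and 6 negative in the first range, and 13 and 0 in the second. Abcd2, a peroxisomal transporter, had -0.561 and -0.124. Whether these list counts differed between the ranges was not tested, and the called differences of single genes are given for Sult2a1 and Cyp2c29 above. The rank correlation of Cyp2c37 with the array median was 0.418 and 0.412, the largest of the 5 genes. With arrays centred 9442 and 6218 probes were called.

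Cyp2c38 had few correlated probes in the Eif2s3y-low range, and many of those genes lay on its own chromosome. Among Eif2s3y-high animals 2618 probes were called with a positive r (11.5%) and 2372 with a negative r (10.4%), together 21.8% of the 22862 tested. The Eif2s3y-low range gave 100 (0.437%) and 84 (0.367%), together 0.805%. Over genes in place of probes the shares were 12% positive and 11.6% negative (23.6% in all), then 0.536% and 0.404% (0.94%). The totals for Cyp2c38, 4990 and 184 probes, became 1254 and 244 with 5 components removed, 94 and 15 among F2 numbers up to the median and 4427 and 43 above it. Cyp2c29, a CAR-inducible P450 whose gene lies 2 measured genes before Cyp2c38, was the gene most like it by the smaller r of both ranges, at r = 0.900 and 0.693 (limma adjusted p = 5.8e-25 and 4.6e-14). The neighbour Cyp2c39 had 0.262 and 0.749, and its difference was called (limma adjusted p = 0.0251). Cyp2c50 went the other way, at 0.626 and 0.0847, also with a called difference (limma adjusted p = 0.00787). Cyp2c54 had 0.652 and 0.231 and Cyp2c40 0.320 and -0.114, with differences that were not called (limma adjusted p = 0.0916 and 0.0721). Cyp2c23 had 0.0728 and -0.439, a called difference (limma adjusted p = 0.0232). In the Eif2s3y-high range Cyp2c38 had its largest r in the cluster with Cyp2c29, Cyp2c37, Cyp2c50 and Cyp2c54. It was also called positive there with Cyp2c40, Cyp2c70 (r = 0.309), Cyp2c55 (0.266) and Cyp2c39. In the Eif2s3y-low range the positive calls in the cluster were Cyp2c29 and Cyp2c39, and Cyp2c23 was called negative.

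Actl6b, a chromatin remodelling subunit annotated on chromosome 5, had r = 0.845 and 0.629 with Cyp2c38, close to the value of Cyp2c29. Cacng5, a calcium channel subunit, had 0.674 and 0.384 and Aldh8a1, a retinal dehydrogenase, 0.440 and 0.325. The chaperone gene Dnajb5 (0.385 and 0.367) and the phosphatase gene Cdc14b (0.358 and 0.319) completed the most alike. Most opposed were Rbm3, a cold-inducible RNA-binding protein, at -0.397 and -0.367, Lbr, the lamin B receptor, at -0.362 and -0.369 and Btg3, a growth inhibitor, at -0.442 and -0.352. Of 27 drug-metabolizing P450s, 19 were called positive and 1 negative in the Eif2s3y-high range and 3 and 0 in the Eif2s3y-low range (median r 0.277 and 0.123, all genes 0.0127 and 0.00911). Of 27 bile acid genes 15 were positive and 4 negative in the Eif2s3y-high range, and 0 were called in the other, with Akr1d1 at 0.622 and 0.262. Of the 10 stellate and matrix genes called negative in the Eif2s3y-high range, Pdgfrb (-0.426 and -0.0675) is an example, and 0 of 19 were called in the Eif2s3y-low range. The part of these cells was not tested.

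On chromosome 19 in the Eif2s3y-low range 22 of 394 genes were called with Cyp2c38 (5.58%), against 0.781% of genes elsewhere. Of the 20 genes with the largest absolute r there, 13 lay on chromosome 19, which holds 3.66% of the placed genes. In the Eif2s3y-high range the shares were 24.4% (96 genes) and 23.9%, and 4 of the top 20 lay there. The called genes reached along the chromosome in both directions. Papss2, which makes the sulfate donor PAPS, lies 31 measured genes before Cyp2c38 and had r = 0.209 and 0.452. Hps1, a gene of lysosome-related organelles, lies 29 genes after it and had -0.223 and -0.513, and Cnnm1, the next gene, had -0.289 and -0.501. Col17a1, a collagen 82 genes away, had 0.0371 and 0.498, and Cyp17a1, a P450 of steroid synthesis 73 genes away, had -0.0463 and -0.445. Neighbouring genes of an F2 are inherited together, and alleles of these animals were not used here, so the part of linkage was not tested. Cyp2c37, in the same cluster, had 4 of its top 20 on chromosome 19 in the Eif2s3y-low range, with 32.2% of chromosome 19 genes called against 31.4% elsewhere. For Gsta2 on chromosome 9, Cyp3a11 on 5 and Cyp2b10 on 7, 1 or 2 of the top 20 lay on the gene's own chromosome in each range.

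**Figure D4:**
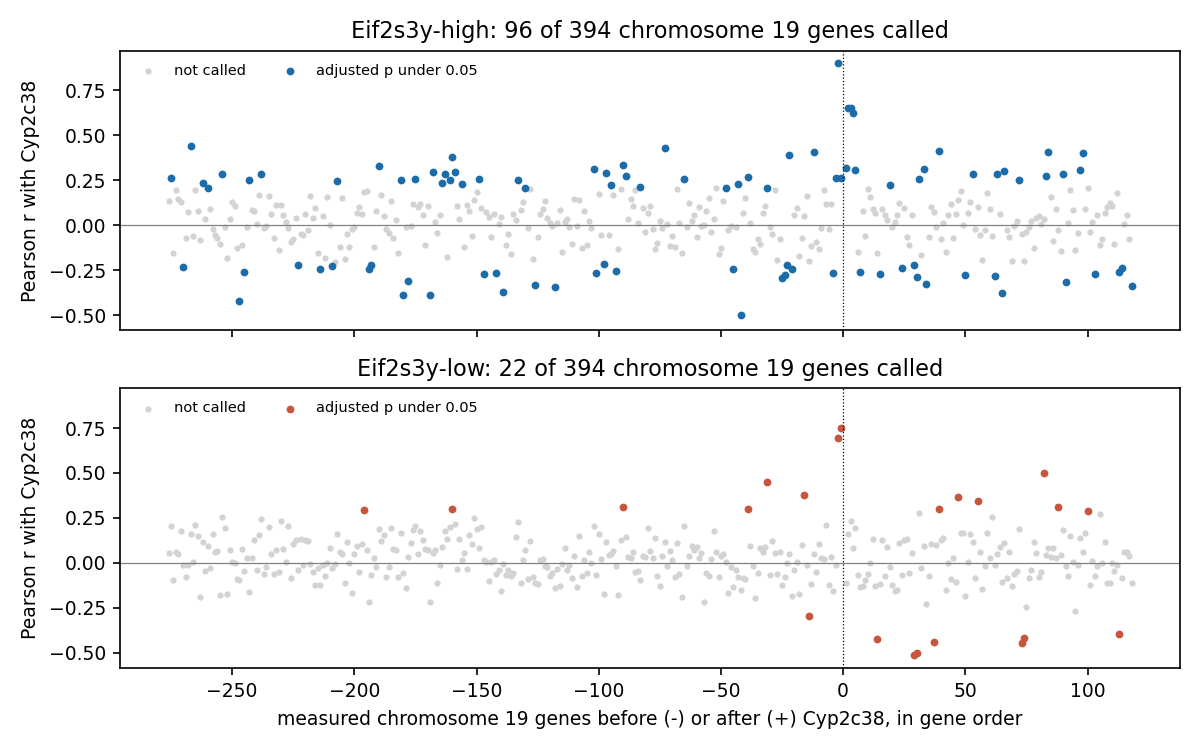
Pearson r with Cyp2c38 (y axis) of the 394 measured chromosome 19 genes, placed by gene order before (negative) or after (positive) Cyp2c38 (x axis), in the Eif2s3y-high (upper) and Eif2s3y-low animals (lower). Coloured points passed an adjusted p of 0.05 in limma, 96 in the upper and 22 in the lower panel. In the lower panel the highest points are Cyp2c39 and Cyp2c29, close to Cyp2c38, and the lowest are Hps1 and Cnnm1, after it.

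Gsta2 varied with the genes of the NRF2 response. Among Eif2s3y-high animals 3295 probes were called with a positive r (14.4%) and 4278 with a negative r (18.7%), together 33.1% of the 22862 tested. The Eif2s3y-low range gave 2645 (11.6%) and 3004 (13.1%), together 24.7%. Over genes in place of probes the shares were 17.1% positive and 19.5% negative (36.6% in all), then 12.8% and 14.5% (27.3%). The totals for Gsta2, 7573 and 5649 probes, became 550 and 2183 with 5 components removed, 5662 and 3196 among F2 numbers up to the median and 3049 and 2360 above it. Of 29 NRF2 target genes, 19 were called positive and 0 negative in the Eif2s3y-high range and 20 and 2 in the Eif2s3y-low range (median r 0.298 and 0.310, all genes -0.0204 and -0.0255), and 18 were positive in both. Gstm1, another glutathione transferase, was the gene most like Gsta2 by the smaller r of both ranges, at r = 0.691 and 0.676 (limma adjusted p = 3.3e-14 and 2.7e-14). Its relative Gstm2 had 0.552 and 0.50, and Gstm6 and Gstm5 had 0.202 and 0.328 and 0.101 and 0.221. Ephx1, microsomal epoxide hydrolase, had 0.602 and 0.675, Nqo1, the quinone reductase, 0.671 and 0.573, Ugdh, which makes UDP-glucuronic acid, 0.592 and 0.666 and the aldehyde oxidase Aox1 0.601 and 0.615. The transcript of NRF2 itself, Nfe2l2, had 0.508 and 0.513. Blvrb, biliverdin reductase B, had 0.644 and 0.353. Gstp1, a pi-class transferase, had 0.125 and 0.535 and was called in the Eif2s3y-low range.

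Genes outside drug metabolism were as close to Gsta2. Large2, a glycosyltransferase, had r = 0.658 and 0.696, Sprr1a, a small proline-rich protein, 0.636 and 0.647 and Lig1, a DNA ligase, 0.597 and 0.657. The most opposed were the serpin Serpina11 at -0.612 and -0.718, Tert, the telomerase subunit, at -0.621 and -0.579 and Sox11, a transcription factor, at -0.579 and -0.604. Of 30 CAR and PXR targets, 14 were called positive and 5 negative in the Eif2s3y-high range and 10 and 2 in the Eif2s3y-low range (median r 0.110 and 0.106), with Cyp2c55 at 0.509 and 0.674. The 27 drug-metabolizing P450s were divided, 8 positive and 9 negative, then 5 and 5. Cyp3a16 had r = 0.400 and -0.367, opposite signs with a called difference (limma adjusted p = 9.1e-08), while Cyp3a11 was positive in both ranges as given above. Of all probes 1.29% were called for a difference with Gsta2, 0.0262% with Cyp3a11 and 0.236% with Cyp2b10.

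Liver secretory genes ran against Gsta2. Of 17 acute phase genes, 1 was called positive and 11 negative in the Eif2s3y-high range and 0 and 15 in the Eif2s3y-low range (median r -0.282 and -0.455). The inter-alpha-trypsin inhibitor chains Itih3 and Itih4 had -0.560 and -0.695 and -0.552 and -0.696, and Serpina3n, a protease inhibitor, -0.361 and -0.614. The 14 periportal genes gave 0 positive and 8 negative, then 0 and 9, while the 16 pericentral genes were divided, at 3 and 4, then 1 and 4. The 27 bile acid genes gave 3 positive and 15 negative, then 2 and 6, and the 8 hepatocyte genes 0 positive and 4 negative, then 0 and 3. The growth factor receptor Egfr had -0.524 and -0.640 and Hnf4a -0.371 and -0.354. Of 19 genes of lipogenesis, 9 were called positive and 2 negative in the Eif2s3y-high range and 12 and 1 in the Eif2s3y-low range (median r 0.121 and 0.227), with the desaturases Scd2 at 0.494 and 0.465 and Scd1 at 0.392 and 0.345. Cd36, the fatty acid transporter, had 0.506 and 0.483.

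Markers of cells other than hepatocytes moved with Gsta2. Of 19 stellate and matrix genes, 14 were called positive and 0 negative in the Eif2s3y-high range and 14 and 0 in the Eif2s3y-low range (median r 0.392 and 0.408), led by Lox, which cross-links collagen (0.542 and 0.451), and Vim, vimentin (0.521 and 0.457). The 22 macrophage genes gave 16 positive and 1 negative, then 8 and 2 (median r 0.331 and 0.118), with Trem2 at 0.553 and 0.476 and Itgax at 0.592 and 0.451. The 12 bile duct genes gave 8 positive and 0 negative, then 7 and 0, with keratin Krt8 at 0.569 and 0.624, and the 15 endothelial genes 10 positive and 1 negative, then 6 and 1, with Cd34 at 0.588 and 0.424. The 17 lymphocyte genes gave 3 positive and 2 negative, then 1 and 2. Pancreas and skeletal muscle genes, signs of other tissue in a sample, gave 1 positive and 0 negative, then 1 and 0 of 9 and 0 positive and 3 negative, then 0 and 0 of 10. The part of these cells in the variation of Gsta2 was not tested. With 12 arrays left out because 1 of these genes exceeded the pool 10-fold, the r of Cyp3a11 and Gsta2 was 0.490 and 0.314, and that of Cyp2c37 and Gsta2 -0.285 and -0.351.

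**Figure D5:**
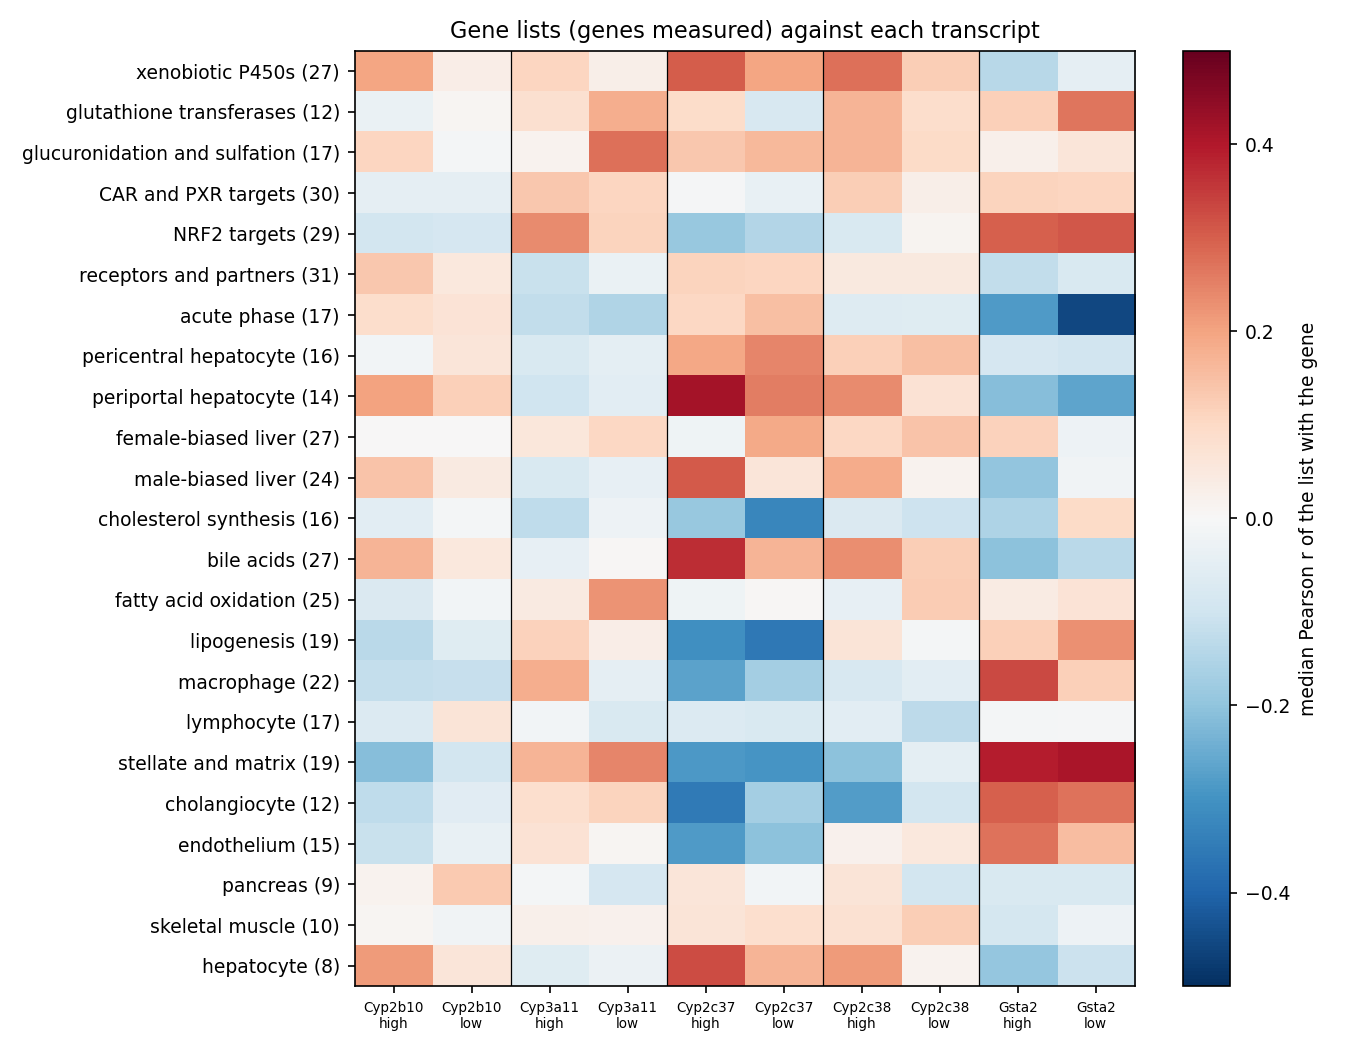
Median Pearson r (colour, from -0.5 in blue to 0.5 in red) of each gene list (rows, number of measured genes in brackets) with each of the 5 transcripts in the Eif2s3y-high and Eif2s3y-low animals (columns). Cyp2c37 and Gsta2 show opposite colours in the rows of periportal, lipogenesis, NRF2 and stellate genes, and the Cyp2c38 column of the Eif2s3y-low animals is pale.

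Precision is set by the number of arrays, which carry no read counts. The medians of the arrays lay between -0.0218 and 0.0172 and their SDs between 0.0658 and 0.206, and 1 to 2889 of 23388 values were missing on an array. Of the 5 genes, Cyp2b10 lacked a value on 1 array. Every animal is a separate sample by its F2 number, and no second array of an animal was used.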

How the data were processed

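Liver RNA of 311 F2 mice was measured on 2-colour arrays. The authors deposited log ratios limited to ±2, which were read here as log10 ratios of animal over pool. Every fold value rests on this reading. How the ratios were normalized is not given in the sources used here. According to the labels the pool was labelled with Cy5 and the animal with Cy3. Base and sign were derived from the values, since the log10 slope of mean on variance (-0.848) lay nearer to what a pool requires in base 10 (-1.15) than in base e (-0.5) or 2 (-0.347). Probes were named through the platform's table and RefSeq (GRCm38.p6, which also gave promoters), and 22863 with a value on at least 95% of arrays were used. Each probe was standardized within each Eif2s3y range and fitted on each gene in limma 3.58.1 (R 4.3.3), 1 slope per range, with Benjamini-Hochberg adjustment over all probes at 0.05. The fits were tested on simulated data. Permutations used 100000 resamples (Python 3.11.15, scipy 1.17.1, seed 2814). Promoters were aligned with Biopython 1.88. Nothing says whether samples were extracted or hybridised in batches.

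The 5 genes and 23 lists were chosen with earlier results of these data known. Genes named beside each of the 5 are its 6 most alike and 3 most opposed in both ranges, 2 more each way per range, up to 3 per list, and up to 3 called differences. Other Cyp2b, Cyp2c, Cyp3a and Gst genes and Col17a1 were chosen after their values were seen. Alternatives were ranks, centred arrays, fewer arrays, a division at the median F2 number, 5 components removed, a split at 0, stricter probes and a BIC margin of 20. The F2 number of 1 sample differs between its title, which was followed, and its source name. Descriptions of the samples name more mice than the 311 arrays.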

Additional observations from a re-analysis of the deposited data

Results flagged for a closer look

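Each difference of r between the ranges named here (Eif2s3y-high minus Eif2s3y-low) passed an adjusted p of 0.05 in limma over all probes, and no cause was tested. The number of called differences moved with the processing. For Cyp2b10 it was 54, but 0 with ranks, 0 with 5 components removed, 0 above the median F2 number, 952 with 2 animals moved to the other range and 181 without them. Above that median it was also 0 for Cyp3a11 and 0 for Cyp2c38, and 5 for Gsta2 in place of 295. Cyp2c37 and Cyp2c38 differed by 0.492. With Cyp2b10 the values were 0.566 for Mynn, a zinc finger protein (r 0.184 and -0.382), 0.561 for Gm4835 (r 0.194 and -0.366) and -0.541 for Fbp2, a fructose bisphosphatase (r -0.416 and 0.125). With Cyp3a11 they were -0.554 for the sulfotransferase Sult2a1 (r -0.120 and 0.435), -0.511 for RMND1 (r -0.0755 and 0.436) and -0.492 for Upf2, a factor of nonsense-mediated decay (r -0.152 and 0.340). With Cyp2c37 the largest difference, 1.0, belonged to Alas2, the erythroid enzyme of haem synthesis, whose r was 0.539 and -0.463 (limma adjusted p = 5.2e-15). Slc15a5, a peptide transporter, followed at 0.842 (r 0.441 and -0.401) and Trhde, a peptidase, at 0.754 (r 0.590 and -0.164). With Cyp2c38 the values were 0.541 for Cyp2c50, -0.515 for Camkk2, a calmodulin-dependent kinase (r -0.560 and -0.0449), and 0.512 for Cyp2c23. With Gsta2 they were 0.766 for Cyp3a16, -0.636 for Gpa33, a cell surface antigen (r -0.302 and 0.334), and 0.630 for Arrdc4, an arrestin relative (r 0.345 and -0.285).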

How the results depend on the processing

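Of the pair correlations under alternatives, 180 stayed on the same side of the threshold. A further 15 lost the call and 1 gained one with the sign kept, and 4 changed sign with a call before or after. The 180 include uncalled r that changed sign and stayed uncalled. Cyp2b10 with Gsta2 (high), for example, lay between -0.202 and 0.218. All 80 shape results stayed. The r of Cyp2c37 with Cyp2c38 and of Cyp3a11 with Gsta2 in the Eif2s3y-high range stayed called throughout. With 5 components removed r turned to -0.0358 for Cyp2b10 and Cyp2c37 (high), 0.302 (high) and 0.0227 (low) for Cyp2c37 and Gsta2, and 0.274 for Cyp2c38 and Gsta2 (high). The first of these also lost its call. The last had been uncalled at -0.000456 and gained one. Calls were lost for Cyp2b10 with Cyp3a11 (low, -0.0962), Cyp2b10 with Cyp2c38 (high, 0.0898) and Cyp3a11 with Gsta2 (low, 0.122), and Cyp3a11 with Cyp2c37 gained one (low, 0.275). The cause was not tested. Probes called then, high and low, were 1430 and 1349 for Cyp2b10, 185 and 286 for Cyp3a11, 524 and 3153 for Cyp2c37, 550 and 2183 for Gsta2 and 1254 (high) for Cyp2c38. Probes called for a difference were 0 for Cyp2b10, 95 for Cyp3a11, 53 for Cyp2c37 and 27 for Gsta2, in place of 54, 6, 1137 and 295. With the animals divided at the median F2 number, and so with fewer animals, calls were lost. Up to the median these were Cyp2b10 with Cyp3a11 (low, -0.171), Cyp2b10 with Cyp2c38 (high, 0.120), Cyp3a11 with Cyp2c38 (high, 0.217), Cyp2c37 with Gsta2 (low, -0.301) and the difference of Cyp2c37 and Cyp2c38 (0.328). Above it they were Cyp2b10 with Cyp3a11 (low, -0.203), with Cyp2c37 (high, 0.176) and with Cyp2c38 (high, 0.334), Cyp3a11 with Gsta2 (low, 0.251), Cyp2c37 with Gsta2 (high, -0.177) and the same difference (0.644). Counts up to the median were 2544 (Cyp2b10, low), 217 and 3472 (Cyp3a11), 3034 (Cyp2c37, low), 94 and 15 (Cyp2c38) and 3196 (Gsta2, low), with 93, 1, 37, 0 and 34 differences in the order Cyp2b10, Cyp3a11, Cyp2c37, Cyp2c38 and Gsta2. Above it they were 1036 and 4439 (Cyp2b10), 3333 and 4023 (Cyp3a11), 3186 (Cyp2c37, low), 43 (Cyp2c38, low) and 3049 and 2360 (Gsta2), with 0, 0, 271, 0 and 5 differences in that order. On the 12089 probes measured on every array the counts were 4012 and 4258 (Cyp2b10), 3453 and 4444 (Cyp3a11), 5920 and 4105 (Cyp2c37), 3114 (Cyp2c38, high) and 4609 and 3702 (Gsta2), with 27 (Cyp3a11), 753 (Cyp2c37) and 13 (Cyp2c38) differences, as fewer probes were tested. Splitting Eif2s3y at 0 moved F2 numbers 199 and 274 to the other range. It gave r = -0.138 for Cyp2b10 and Cyp3a11 (low, call lost), a called difference of 0.389 for Cyp2b10 and Cyp2c37, and 952, 2 and 1778 differences for Cyp2b10, Cyp3a11 and Cyp2c37. Without both animals, an alternative chosen after the data were seen, Cyp2b10 had 181 differences. Cyp2b10 with Cyp3a11 (low) lost its call with centred arrays (-0.184) and ranks (-0.184). Ranks gave 0 differences for Cyp2b10 and 108 for Gsta2. Without the 12 arrays rich in pancreas or muscle signal Cyp2b10 had 15 differences and Cyp2c38 115 probes (low). Without the 10 arrays of largest spread differences were 27 (Cyp2b10), 14 (Cyp3a11) and 45 (Cyp2c38). The most variable probe per gene was not run, as each of the 5 genes had 1 probe. Some of the genes set beside them, such as Cyp2c40, Cyp3a25 and Gstm1, had several probes. Each was represented by the probe with the fewest missing values, and how its r depends on that choice was not tested. No paired analysis was possible because all animals form 1 group.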
